A study of Solanum lycopersicum with 9 samples.

Results

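MYB proteins are DNA-binding proteins named after an oncogene of an avian retrovirus, and their shared Myb domain folds into a helix-turn-helix that reads short DNA motifs. In plants the family is large. Members with several Myb repeats (R2R3 MYBs) control, among other things, phenylpropanoid and flavonoid synthesis, cell shape and stress responses, whereas members with a single repeat include clock factors, cytokinin response regulators and phosphate-starvation regulators. A related SANT version of the domain occurs in chromatin proteins that are not transcription factors in the strict sense.

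The MYB sequences described here were those whose Pfam annotation held the Myb-like DNA-binding domain (PF00249) and that reached at least 0.5 FPKM in at least 3 of 9 libraries. FPKM corrects fragment numbers for sequence length and library size, so levels can be set beside each other between sequences. Of 104 annotated sequences with the domain, 94 passed, out of 44203 sequences that passed the same filter and 82125 in all. The rule used annotation and abundance over the 9 libraries and no test of the response to treatment, but the level at a single dose could decide membership. Of the 94, 73 were at or above 0.5 FPKM in every library. Without the 30 mM libraries 4 of the 94 would fall below the filter, among them T15_3_TRINITY_DN21733_c0_g1, and 1 each without the 15 mM or the control libraries. Just inside the filter were T15_1_TRINITY_DN47857_c0_g1 (0.54 FPKM in the library that decided its place) and T15_3_TRINITY_DN69883_c0_g1 (0.55 FPKM). The sequences just outside it, TCK_2_TRINITY_DN11936_c0_g1 and TCK_3_TRINITY_DN58164_c0_g1, both stood at 0.48 FPKM by the same measure.

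The samples were leaves of Solanum lycopersicum, tomato, of the cultivar Diana, about a month after planting. Plants received 0 (control), 15 or 30 mM para-hydroxybenzoic acid (PHBA), a phenolic acid studied as an allelochemical, a compound by which plants can inhibit their neighbours, for 2 days. Each dose had 3 libraries, numbered 1 to 3. The labels state that RNA of the same treatment was mixed in equal parts and name no separate plants behind the libraries. The p-values therefore reflect the library-to-library spread alone, and that spread may be technical.

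Sequences were assembled de novo and carry the name of the library whose assembly they came from (TCK, T15 or T30 with a number), which is not the sample in which they were measured. None of the 94 names matched the RefSeq gene table, so no tomato gene name, position or sequence is given. Some may be pieces or close copies of the same gene with reads split among them, so a number of sequences does not equal a number of genes. Summed FPKM per library was 349076 to 383347 and the relative depth 0.877 to 1.21 of control replicate 1. The 4 most abundant sequences, which are not MYB sequences, held 39.4 to 45.0% of the FPKM at 0 mM, 26.9 to 44.6% at 15 mM and 33.5 to 42.4% at 30 mM, and every other FPKM value in a library depends on that share. Leaf markers were present at every dose. The 24 chlorophyll a-b binding sequences summed to 4900 to 7560 FPKM at 0 mM, 4160 to 5680 at 15 mM and 1820 to 2910 at 30 mM, and 1 Rubisco small subunit sequence had 89.7 to 141, 75.7 to 119 and 50.9 to 96.4 FPKM. For other organs, 17 floral K-box sequences summed to 27.4 to 31.1, 26.2 to 33.2 and 26.2 to 32.7 FPKM at 0, 15 and 30 mM, and 6 pollen Ole e 1 sequences summed to 28.4 to 45.2, 30.8 to 43.0 and 25.4 to 38.2 FPKM. Both overlapped between doses, as did 22 cellulose synthase sequences of xylem and root (200.0 to 253, 169 to 259 and 170.0 to 290.0 FPKM). The 15 laccases, markers of the same tissues, summed to 27.3 to 33.9, 27.8 to 44.2 and 38.8 to 47.3 FPKM, with all 30 mM libraries above the controls. None of these marker sequences was at 0 in all libraries, and their part in the results below was not tested. In RNA from whole leaves, fewer cells of a type and less RNA per cell cannot be told apart.

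By the other domains in the annotation, the 94 sequences fell into 7 classes. The largest defined class was the SHAQKYF type (28 sequences), proteins named after a conserved peptide and known in Arabidopsis for clock and light-related factors. A further 10 were of the MYB-CC type, with a coiled coil behind the Myb domain, the structure of the Arabidopsis phosphate-starvation regulator PHR1. The response regulator class (6 sequences) joins a phosphate-receiving domain to the Myb domain, as in the type-B regulators that carry out the cytokinin response, and 2 sequences of the SHAQKYF type also matched a receiver profile. There were 4 single Myb histone sequences, which carry a linker histone domain and resemble telomere-repeat binding proteins. The chromatin class held 6 sequences with a SWIRM, ZZ or DnaJ domain, as found in SWI/SNF and histone acetylation complexes and in a ribosome-associated chaperone family. In 3 sequences a second Myb domain entry (PF13921) was listed. The other 37 carried no further domain that the class rule used, although T30_3_TRINITY_DN10389_c0_g1 among them had a bromodomain. Of the 37, 25 matched the Myb-type helix-turn-helix profile, 4 the SANT profile and 4 a SANT domain of the telomere-binding type. The annotation lists each domain once per sequence, so R2R3 members could not be separated from single-repeat members, and the 37 are called MYB sequences of the remaining class.

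MYB transcripts were of low to moderate abundance. The mean over 9 libraries ranged from 0.421 to 26.2 FPKM with a median of 1.96, against 2.32 for the 13634 annotated sequences and 0.984 for all 44203. Only 9 exceeded 10 FPKM. The most abundant was TCK_3_TRINITY_DN79797_c0_g1 of the remaining class (26.2 FPKM), followed by T30_3_TRINITY_DN27404_c0_g1, the DnaJ-type sequence of the chromatin class (25.2 FPKM), T15_2_TRINITY_DN560_c0_g1 of the SHAQKYF type (24.3 FPKM) and T30_1_TRINITY_DN11655_c0_g1 of the remaining class (23.4 FPKM). These 4 overlapped in their library values, and T15_2_TRINITY_DN6686_c0_g2 of the MYB-CC type came next, at 10.4 ± 0.72, 16.1 ± 1.62 and 15.5 ± 0.587 FPKM at 0, 15 and 30 mM (SD, n = 3 each). The DnaJ-type sequence had 22.6 ± 1.2 FPKM at 0 mM, 26.2 ± 1.02 at 15 mM and 26.9 ± 1.03 at 30 mM, and all treated libraries lay above the controls. T15_2_TRINITY_DN560_c0_g1 had 21.7 ± 2.08, 25.7 ± 4.34 and 25.4 ± 3.81 FPKM at the same doses. Neither sequence was called in any comparison on the deposited scale. With quantile-normalized values T15_2_TRINITY_DN560_c0_g1 was called lower at 30 mM against control (log2 fold change -0.30, adjusted p = 0.0264) and against 15 mM (log2 fold change -0.30, adjusted p = 0.0426), opposite in sign to 0.21 against control as deposited. By class the median level was 2.59 FPKM for the SHAQKYF type, 2.05 FPKM for MYB-CC, 2.9 for response regulators, 2.97 for chromatin proteins, 1.82 for the remaining class, 1.26 for single Myb histones and 1.13 for those with a second Myb domain.

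The first comparison set 30 mM PHBA against the control. A small group of MYB sequences was higher and another group lower at 30 mM. Of the 94, 8 rose (7 without T15_3_TRINITY_DN21733_c0_g1, which passed the filter only through its 30 mM libraries), 6 fell and 80 did not pass the test, which was limma on log2(FPKM + 1) over all 44203 sequences with a Benjamini-Hochberg adjusted p under 0.05. Among all sequences tested, 10% were called higher and 1.75% lower, and among annotated sequences 21.1% and 2.95%. The MYB shares were 8.51% higher and 6.38% lower. The median log2 fold change of the 94 was 0.12, against 0.30 for annotated sequences and 0.18 for all. At an unadjusted p under 0.05 there were 23 higher and 14 lower MYB sequences, where 21.4% of all sequences were higher and 4.65% lower, and 40% and 5.93% of annotated ones. The 23 include T15_3_TRINITY_DN21733_c0_g1 and T15_2_TRINITY_DN60982_c0_g1, which also passed the filter only through its 30 mM libraries. In 42 of the 94, again including both of these, the 3 libraries at 30 mM did not overlap with the 3 controls. Among all sequences tested this share was 31.9%. It was not computed for annotated sequences, which were called more often than all sequences. The difference in share was not tested.

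The largest rises were in the remaining class, all in sequences with the Myb-type helix-turn-helix profile. T15_3_TRINITY_DN57808_c0_g1 had 0.49, 0.71 and 1.09 FPKM in control replicates 1 to 3, 3.08, 2.72 and 3.71 FPKM at 15 mM and 18.6, 6.68 and 16.53 FPKM at 30 mM. The 3 doses did not overlap, and replicate 2 at 30 mM was well below the other two. At 30 mM it averaged 13.9 ± 6.37 FPKM and in the control 0.763 ± 0.304 (SD, n = 3 each), a log2 fold change of 2.98 (SE 0.33, limma adjusted p = 9.1e-04). T15_3_TRINITY_DN21733_c0_g1 was barely detected without treatment, with 0, 0.3 and 0.07 FPKM in the controls, 0.49, 0.09 and 0.88 FPKM at 15 mM and 7.06, 1.77 and 7.39 FPKM at 30 mM. Only the 30 mM libraries stood clear of the rest, again with replicate 2 the lowest. Of the 6 libraries at the other doses only 1 reached 0.5 FPKM, so this sequence was among the members because of its level at 30 mM, and its difference is given as a description. T30_3_TRINITY_DN2221_c0_g1 averaged 3.54 ± 0.895 FPKM at 30 mM (3.13, 2.93 and 4.57) and 0.697 ± 0.261 in the control (0.8, 0.4 and 0.89), with no overlap (log2 fold change 1.42, SE 0.20, adjusted p = 0.00299). T30_3_TRINITY_DN7477_c0_g1 averaged 2.94 ± 0.347 FPKM at 30 mM (2.64, 3.32 and 2.86) and 1.09 ± 0.131 in the control (0.97, 1.23 and 1.08; log2 fold change 0.91, SE 0.15, adjusted p = 0.00541). The calls of T15_3_TRINITY_DN57808_c0_g1, T30_3_TRINITY_DN2221_c0_g1 and T30_3_TRINITY_DN7477_c0_g1 held in every one of the 19 alternatives tried. T30_1_TRINITY_DN1157_c0_g1 was the fifth riser of the class, with 3.42 ± 0.244 FPKM at 30 mM and 1.51 ± 0.191 in the control (log2 fold change 0.82, adjusted p = 0.0073). It was no longer called once libraries were quantile normalized (adjusted p = 0.0575) or rescaled by median of ratios (adjusted p = 0.0647).

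Rises outside that class were smaller. Of the 10 MYB-CC sequences, 2 rose and none fell, where 21.1% of annotated sequences were called higher and 2.95% lower. At an unadjusted p under 0.05 there were 4 higher and 2 lower, where 40% and 5.93% of annotated sequences were. On other scales 1 MYB-CC sequence rose and 3 fell, after quantile normalization and likewise after median-of-ratios rescaling. TCK_1_TRINITY_DN2058_c0_g2 had 4.85, 5.47 and 4.61 FPKM at 30 mM, against 2.53, 2.66 and 2.73 FPKM in the controls. Its replicates were tight in both groups, with means of 4.98 ± 0.444 and 2.64 ± 0.101 FPKM (log2 fold change 0.71, SE 0.13, adjusted p = 0.0106, or 0.0517 without control replicate 1). The more abundant MYB-CC sequence T15_2_TRINITY_DN6686_c0_g2 averaged 15.5 ± 0.587 FPKM at 30 mM and 10.4 ± 0.72 in the control (log2 fold change 0.54, adjusted p = 0.0172). It did not pass without control replicate 1, 2 or 3 (adjusted p = 0.0587, 0.081 and 0.0502), with quantile-normalized values (adjusted p = 0.911) or with median-of-ratios rescaling (adjusted p = 0.407). T15_1_TRINITY_DN11644_c0_g1, the single SHAQKYF-type sequence that rose, had 8.1, 7.83 and 8.29 FPKM at 30 mM, against 4.65, 5.13 and 4.71 FPKM in the controls. Its replicates lay close together at each dose (log2 fold change 0.64, SE 0.10, adjusted p = 0.0056), and it did not pass with quantile-normalized (adjusted p = 0.452) or rescaled values (adjusted p = 0.254). The largest log2 fold change among MYB sequences that did not pass was also in the MYB-CC type, in T30_1_TRINITY_DN7257_c0_g2, named after its values were seen (0.79, adjusted p = 0.0538), with 2.12 ± 0.607 FPKM at 30 mM and 0.79 ± 0.135 in the control. Its groups did not overlap. TCK_2_TRINITY_DN80_c0_g4, second in abundance among MYB-CC sequences and also named after its values were seen, had 14.1 ± 2.19 FPKM at 30 mM and 11.5 ± 1.02 in the control, with overlap.

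**Figure D1:**
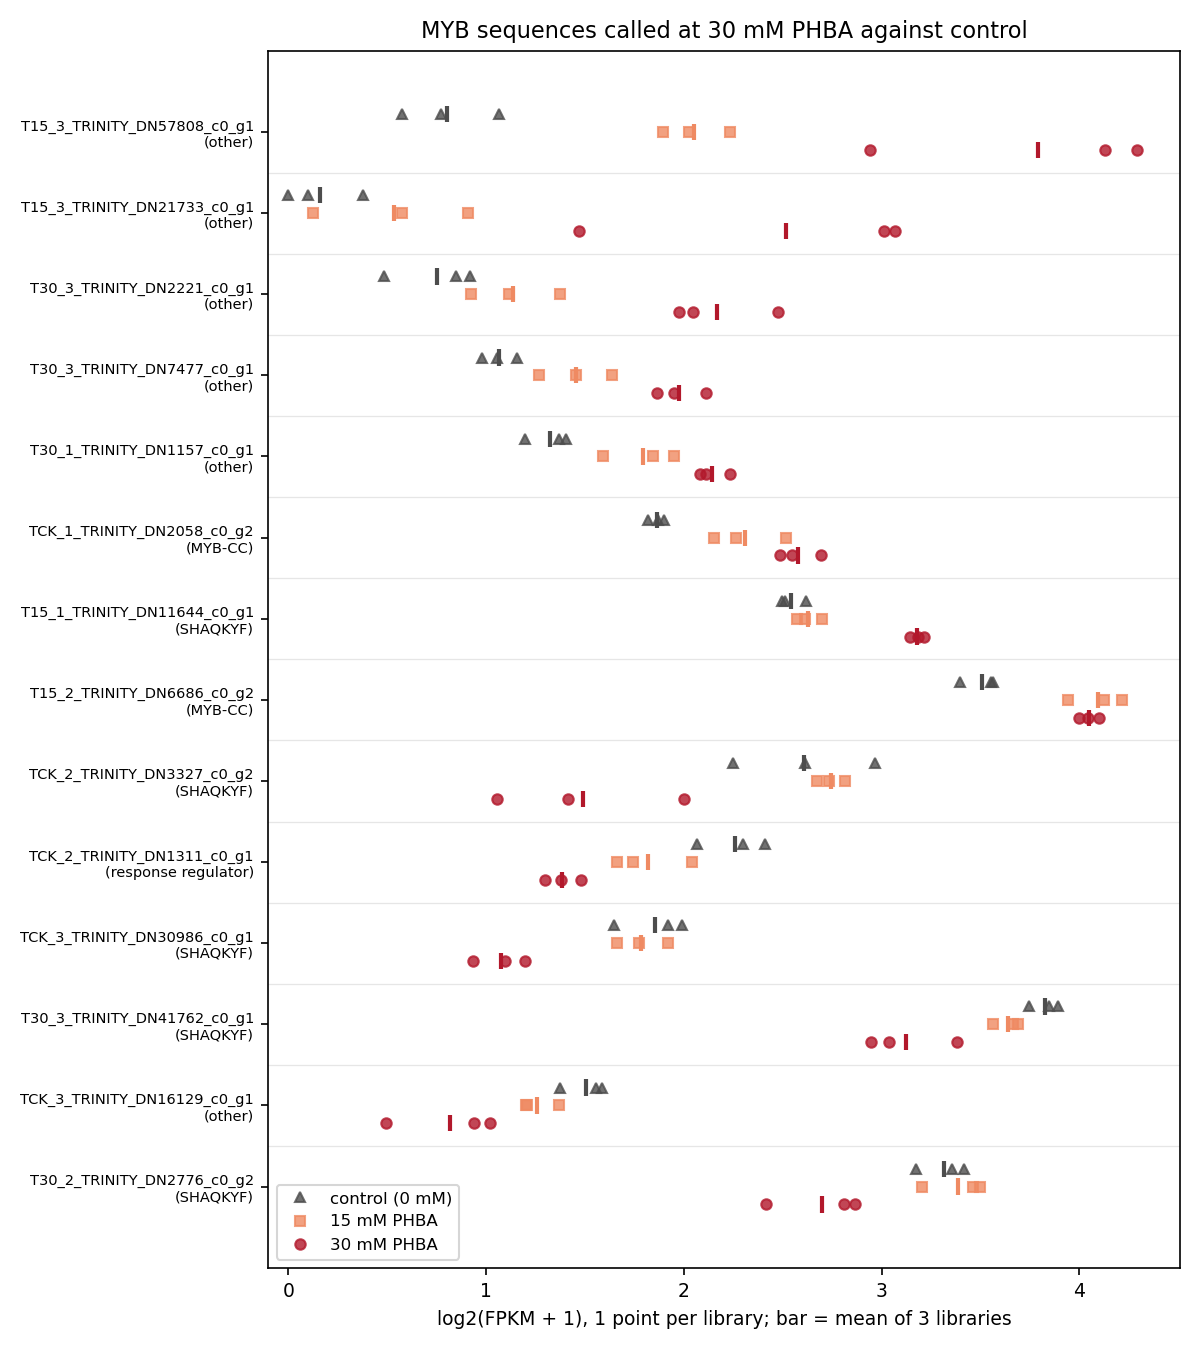
Level of the 14 MYB sequences called at 30 mM PHBA against control, as log2(FPKM + 1), with 1 point per library, 3 libraries per dose and a bar at the mean of each dose ("other" is the remaining class). The 8 upper sequences rose (T15_3_TRINITY_DN21733_c0_g1 is shown as a description) and the 6 lower ones fell, with no overlap between 30 mM and control libraries in any of the 14, which share that feature with 31.9% of all sequences tested.

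Of the 6 falls 4 were in the SHAQKYF type, where 1 of the 28 members rose, with a class median log2 fold change of -0.17. Among annotated sequences 2.95% were called lower and 21.1% higher, with a median of 0.30. TCK_2_TRINITY_DN3327_c0_g2 fell most among the members. It had 1.67, 3.0 and 1.08 FPKM at 30 mM, against 6.83, 5.11 and 3.75 FPKM in the controls, and both groups were widely spread (log2 fold change -1.12, SE 0.25, adjusted p = 0.0239). TCK_3_TRINITY_DN30986_c0_g1 averaged 1.11 ± 0.191 FPKM at 30 mM and 2.63 ± 0.446 in the control (log2 fold change -0.78, SE 0.15, adjusted p = 0.0124). T30_3_TRINITY_DN41762_c0_g1, one of the abundant members, had 9.42, 6.7 and 7.22 FPKM at 30 mM, against 13.4, 13.83 and 12.4 FPKM in the controls (log2 fold change -0.71, SE 0.13, adjusted p = 0.0114). T30_2_TRINITY_DN2776_c0_g2 averaged 5.54 ± 1.06 FPKM at 30 mM and 8.98 ± 0.846 in the control (log2 fold change -0.62, SE 0.16, adjusted p = 0.0348). The remaining class held 1 fall, TCK_3_TRINITY_DN16129_c0_g1, at 0.787 ± 0.331 FPKM against 1.84 ± 0.221 in the control (log2 fold change -0.69, SE 0.17, adjusted p = 0.0348).

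The response regulator TCK_2_TRINITY_DN1311_c0_g1 also fell. It had 3.93, 3.19 and 4.32 FPKM in the controls, 2.35, 2.17 and 3.12 FPKM at 15 mM and 1.6, 1.79 and 1.46 FPKM at 30 mM. The 3 doses did not overlap, and the 30 mM value was 1.62 ± 0.166 FPKM against 3.81 ± 0.574 in the control (log2 fold change -0.87, SE 0.15, adjusted p = 0.00811). This was the single fall that held in all 19 alternatives. The other 5 response regulators did not pass, with log2 fold changes of -0.44 for T15_2_TRINITY_DN3107_c0_g1 to 0.43 for T15_1_TRINITY_DN5493_c0_g1, both named after their values were seen. The first of these was the most abundant response regulator, with 6.25 ± 0.653 FPKM at 30 mM and 8.86 ± 1.66 in the control, without overlap. The fall of TCK_3_TRINITY_DN30986_c0_g1 was lost without control replicate 1 (adjusted p = 0.0612), and that of T30_3_TRINITY_DN41762_c0_g1 without control replicate 1 or 2 (adjusted p = 0.0535 and 0.0551). TCK_2_TRINITY_DN3327_c0_g2 did not pass without control replicate 1 (adjusted p = 0.0909) or 2 (0.0769), nor without replicate 1 (0.0777) or 3 (0.0616) at 30 mM. The falls of TCK_3_TRINITY_DN16129_c0_g1 and T30_2_TRINITY_DN2776_c0_g2 did not pass without any 1 control, without the first 15 mM library, or without the first or last 30 mM library (adjusted p = 0.0577 to 0.119). In all, 1 fall was left without control replicate 1, 2 without control replicate 2 and 3 without either of those 30 mM libraries.

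No member of 3 classes was called at 30 mM, with 3 of 6 chromatin, 1 of 4 single Myb histone and 1 of 3 second Myb domain sequences higher at an unadjusted p under 0.05 and none lower, where 40% of annotated sequences were higher and 5.93% lower. In the chromatin class the log2 fold changes lay between -0.03 and 0.43, the largest in the SWIRM sequence TCK_3_TRINITY_DN21162_c0_g1, named after its values were seen, at 3.68 ± 0.143 FPKM against 2.48 ± 0.335 in the control (adjusted p = 0.133). Single Myb histones lay between -0.08 and 0.57, and the most abundant of them, T15_2_TRINITY_DN4306_c0_g1, had 2.79 ± 0.215 FPKM at 0 mM, 3.34 ± 0.141 at 15 mM and 3.19 ± 0.321 at 30 mM. Of the sequences with a second Myb domain, T15_1_TRINITY_DN7566_c0_g1 had 1.78 ± 0.297, 2.11 ± 0.325 and 1.8 ± 0.2 FPKM at 0, 15 and 30 mM, differences within the replicate spread. Neither was called in any comparison as deposited or after rescaling.

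The split between higher and lower MYB calls depended on how libraries were scaled. Taken over all 44203 sequences, the typical (median) log2 fold change was 0.18 as deposited, -0.01 with quantile-normalized values and 0.10 when the 4 most abundant were left out and FPKM rescaled. The 94 MYB sequences had a median of -0.19 with quantile-normalized values, of -0.15 with median-of-ratios rescaling (each library divided by its median ratio to the typical library) and of 0.02 with the 4 sequences left out. After quantile normalization 5 rose and 21 fell, where 5.62% and 5.45% of all sequences were called higher and lower. After median-of-ratios rescaling 5 rose and 19 fell, against 6.41% and 5.22% of all sequences. With the 4 abundant sequences left out the counts were 10 and 13, against 10.3% and 3.35%. The 5 MYB rises were the same under quantile normalization and median-of-ratios rescaling, and all were among the 8 above. They included T15_3_TRINITY_DN21733_c0_g1, which passed the filter only through its 30 mM libraries and is given as a description. Of the falls, 18 were shared by both rescalings, and these included all 6 above.

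In the SHAQKYF type 12 of 28 fell and none rose after quantile normalization, and 11 fell and none rose after median-of-ratios rescaling. Among 13634 annotated sequences these scales gave 1449 falls and 1588 rises, then 1314 falls and 1838 rises. At an unadjusted p under 0.05 on the deposited scale the class had 1 higher and 8 lower, where 40% of annotated sequences were higher and 5.93% lower. An example, named after its values were seen, is TCK_1_TRINITY_DN4241_c0_g1. It had 7.62, 7.14 and 5.99 FPKM at 30 mM, against 9.48, 9.38 and 9.56 FPKM in the controls, a log2 fold change of -0.41 as deposited (adjusted p = 0.123) and -0.76 after median-of-ratios rescaling (adjusted p = 9.7e-04). T15_3_TRINITY_DN1744_c0_g1, also named after its values were seen, had 1.34, 2.66 and 1.54 FPKM at 30 mM and 3.53, 3.24 and 3.39 FPKM in the controls (log2 fold change -0.65, adjusted p = 0.0575 as deposited, and -0.93, adjusted p = 0.00862 after the rescaling). In both, all 30 mM libraries lay below all controls on the deposited scale. MYB-CC sequences gave 1 rise and 3 falls under each of these scales, and response regulators 2 falls. The remaining class gave 4 rises under each, with 4 falls after quantile normalization and 3 after the other rescaling. Those rises included T15_3_TRINITY_DN21733_c0_g1, whose difference is a description.

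**Figure D2:**
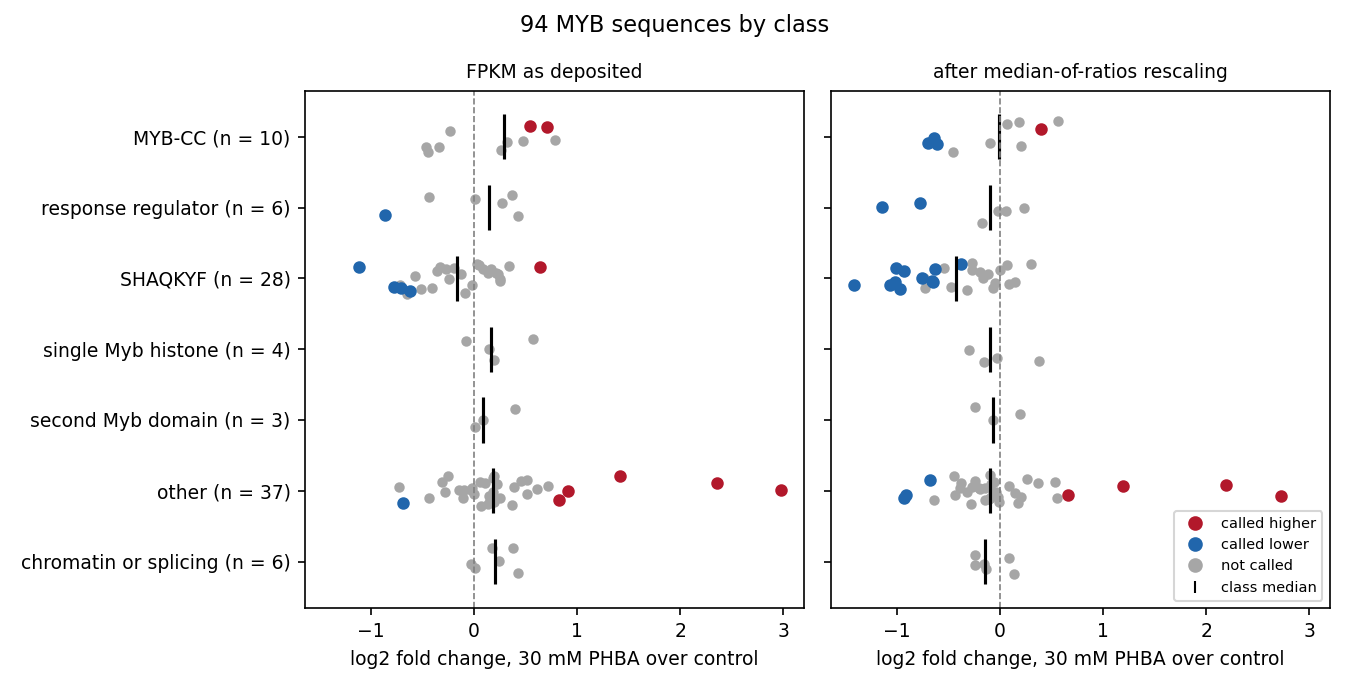
Log2 fold change at 30 mM PHBA over control (x axis) of the 94 MYB sequences by class (rows, with a line at the class median), from FPKM as deposited on the left and after median-of-ratios rescaling on the right. Red points were called higher and blue points lower by limma at an adjusted p under 0.05, and the SHAQKYF class moved to 11 falls and 0 rises on the right, while 4 sequences of the remaining class stayed red in both panels. Among those 4 is T15_3_TRINITY_DN21733_c0_g1, shown as a description.

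The summed level of the 94 sequences showed the same dependence. As deposited it was 318, 329 and 341 FPKM at 0 mM, 416, 342 and 469 FPKM at 15 mM and 402, 368 and 356 FPKM at 30 mM. Both treated groups lay above the controls on this scale. After median-of-ratios rescaling the sums were 389, 389 and 364 at 0 mM, 388, 380.0 and 385 at 15 mM and 316, 316 and 357 at 30 mM. The 30 mM libraries then lay below the controls, and the 15 mM libraries were within their range. The share of the 4 most abundant sequences was highest in control replicate 1 (45.0%), which had the lowest MYB sum as deposited, and lowest in 15 mM replicate 3 (26.9%), which had the highest. The next lowest shares, in 30 mM replicate 1 (33.5%) and 15 mM replicate 1 (34.3%), went with the next highest sums (402 and 416). In between, the order was kept only in part. For example, 15 mM replicate 2 (44.6%) had a sum of 342 and control replicate 2 (40.3%) a sum of 329. A link between share and sum was not tested.

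**Figure D3:**
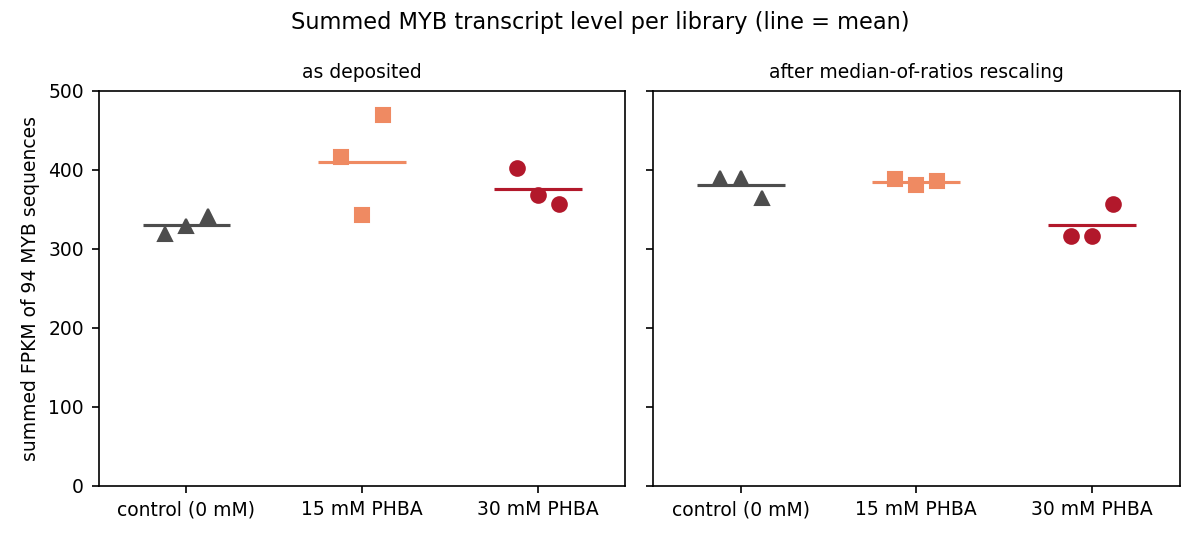
Summed FPKM of the 94 MYB sequences in each library (y axis) by PHBA dose (x axis), with a line at the mean of 3 libraries, as deposited on the left and after median-of-ratios rescaling on the right. The 30 mM libraries sit at 356 to 402 on the left, above the controls, and at 316 to 357 on the right, below them.

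The second comparison set 15 mM PHBA against the control. None of the 94 MYB sequences passed limma's adjusted threshold, and 11 higher and 2 lower had an unadjusted p under 0.05, where 8.95% of all sequences were higher and 1.46% lower. Of 13634 annotated sequences, 1937 were higher and 127 lower at that unadjusted p. Of all sequences tested, 0.0837% were called higher and 0.0158% lower at this dose, so a list of this size would hold few calls at the background rate. The MYB median log2 fold change was 0.16, close to 0.15 for all sequences and 0.19 for annotated ones. In 30 of 94 the groups did not overlap, where 17.1% of all sequences did not. The share among annotated sequences was not computed, and the difference in share was not tested.

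The 6 sequences with the smallest unadjusted p-values at 15 mM all had higher means there than in the control, and 3 of them were among the 5 most abundant members. T30_1_TRINITY_DN11655_c0_g1 had 13.28, 12.23 and 20.99 FPKM at 0 mM, 30.38, 29.76 and 37.97 FPKM at 15 mM and 23.37, 19.83 and 22.74 FPKM at 30 mM. It was highest at 15 mM, above all libraries of the other doses (15 mM against control: log2 fold change 1.06, SE 0.20, adjusted p = 0.112). At 30 mM its libraries overlapped with the controls (log2 fold change 0.51, adjusted p = 0.139). TCK_3_TRINITY_DN79797_c0_g1 had a like order, with 19.1 ± 3.96, 33.2 ± 8.76 and 26.3 ± 1.14 FPKM at 0, 15 and 30 mM (log2 fold change at 15 mM 0.76, SE 0.21, adjusted p = 0.254). Its 15 mM replicates were widely spread, at 32.99, 24.58 and 42.1 FPKM. The MYB-CC sequence T15_2_TRINITY_DN6686_c0_g2 averaged 16.1 ± 1.62 FPKM at 15 mM and 10.4 ± 0.72 in the control (log2 fold change 0.59, adjusted p = 0.121), and at 15.5 ± 0.587 FPKM the 30 mM libraries overlapped with those at 15 mM. The response regulator T30_2_TRINITY_DN6350_c0_g1 had 4.62, 4.38 and 5.32 FPKM at 15 mM, against 2.82, 3.19 and 3.19 FPKM in the controls (log2 fold change 0.50, adjusted p = 0.19). T15_3_TRINITY_DN57808_c0_g1, the largest riser at 30 mM, already stood apart from the controls at 15 mM, at 3.17 ± 0.501 FPKM against 0.763 ± 0.304 (log2 fold change 1.25, SE 0.33, adjusted p = 0.231). TCK_1_TRINITY_DN2058_c0_g2 had a log2 fold change of 0.45 (adjusted p = 0.294). With libraries weighted by their quality in limma, T30_1_TRINITY_DN11655_c0_g1 (adjusted p = 0.0298), T15_2_TRINITY_DN6686_c0_g2 (adjusted p = 0.0192) and T30_2_TRINITY_DN6350_c0_g1 (adjusted p = 0.0422) were called higher at 15 mM, where 1.62% of all sequences were. A member of opposite course, named after its values were seen, was TCK_2_TRINITY_DN264_c0_g1 of the SHAQKYF type, with 2.17 ± 0.961 FPKM at 0 mM, 0.817 ± 0.184 at 15 mM and 2.45 ± 0.531 at 30 mM (15 mM against control: log2 fold change -0.76, adjusted p = 0.302).

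**Figure D4:**
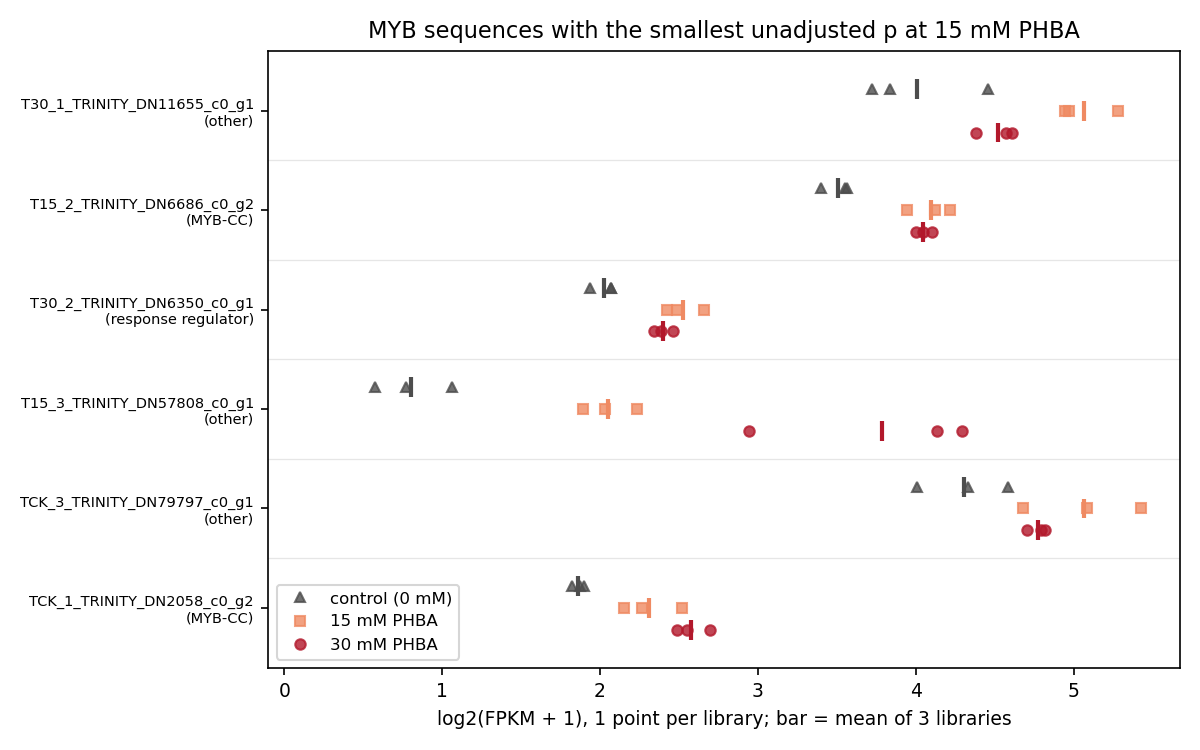
Level of the 6 MYB sequences with the smallest unadjusted p at 15 mM PHBA against control, as log2(FPKM + 1), with 1 point per library and a bar at the mean of each dose. None passed the adjusted threshold, and T30_1_TRINITY_DN11655_c0_g1, TCK_3_TRINITY_DN79797_c0_g1, T15_2_TRINITY_DN6686_c0_g2 and T30_2_TRINITY_DN6350_c0_g1 have their highest mean at 15 mM.

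The third comparison set 30 mM against 15 mM PHBA, and it shares its libraries with the other two comparisons, which themselves share the controls. Of the 94, 4 rose (3 without T15_3_TRINITY_DN21733_c0_g1) and 2 fell at 30 mM relative to 15 mM, where 2.41% of all sequences were called higher and 0.690% lower. Among annotated sequences these shares were 4.81% and 1.15%. The median log2 fold change was -0.06 for MYB sequences, against 0.05 for all and 0.11 for annotated sequences, and 10 higher and 14 lower had an unadjusted p under 0.05, where 11.1% of all sequences were higher and 5.71% lower. At that p 2678 of 13634 annotated sequences were higher and 910 lower. The groups did not overlap in 28 of 94, where 19.5% of all sequences did not. Both the 10 higher and the 28 include T15_3_TRINITY_DN21733_c0_g1. The share among annotated sequences was not computed, and the difference in share was not tested. T15_3_TRINITY_DN21733_c0_g1 averaged 5.41 ± 3.15 FPKM at 30 mM and 0.487 ± 0.395 at 15 mM, a description for the reason given above. For T15_3_TRINITY_DN57808_c0_g1 the values were 13.9 ± 6.37 and 3.17 ± 0.501 FPKM at 30 and 15 mM (log2 fold change 1.74, SE 0.33, adjusted p = 0.0266). T30_3_TRINITY_DN2221_c0_g1 rose by 1.03 on the log2 scale (adjusted p = 0.0309), and T15_1_TRINITY_DN11644_c0_g1 by 0.55, with 8.07 ± 0.231 FPKM at 30 mM and 5.19 ± 0.276 at 15 mM (adjusted p = 0.0264). The falls were the SHAQKYF sequences TCK_2_TRINITY_DN3327_c0_g2, at 1.92 ± 0.983 FPKM against 5.7 ± 0.327 at 15 mM (log2 fold change -1.25, SE 0.25, adjusted p = 0.0359), and TCK_3_TRINITY_DN30986_c0_g1, at 1.11 ± 0.191 against 2.46 ± 0.307 FPKM (log2 fold change -0.71, SE 0.15, adjusted p = 0.0414). For both falls the 15 mM level overlapped with the control level, and only the 30 mM libraries stood apart. Each of the 6 calls was lost when the first or last library of 15 mM or of 30 mM was left out (adjusted p = 0.0591 to 0.147), and 5 of them without at least 1 control library (adjusted p = 0.0508 to 0.0739). With quantile-normalized values 2 rose and 14 fell, where 2.50% of all sequences were called higher and 2.55% lower. With median-of-ratios rescaling 2 rose and 9 fell, where the shares were 2.84% and 1.99%. Annotated sequences (13634) had 672 higher and 720 lower with quantile-normalized values, and 811 and 538 with the other rescaling. The rises on both scales included T15_3_TRINITY_DN21733_c0_g1, a description as above.

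Over the 3 doses, the highest group mean was at 0 mM in 16 of the 94 MYB sequences, at 15 mM in 41 and at 30 mM in 37. Among all sequences tested these shares were 17.9%, 33.0% and 49.1%, against 17.0%, 43.6% and 39.4% of the MYB sequences. After median-of-ratios rescaling the MYB counts were 52, 22 and 20, or 55.3%, 23.4% and 21.3%, against 35.9%, 26.9% and 37.2% of all sequences. Which dose held most maxima thus changed with the scale, and no test of these shares was made.

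Genes of the pathways in which MYB proteins act were counted at 30 mM against control, a comparison in which 21.1% of annotated sequences were called higher and 2.95% lower. In groups this small the counts are descriptions. Of 4 phenylalanine ammonia-lyases, which open the phenylpropanoid pathway, 2 rose and none fell, with a median log2 fold change of 1.06. None of 3 chalcone synthases passed (0 at an unadjusted p under 0.05), and 2 of 5 chalcone isomerases rose. Of 15 sequences with the bHLH-MYC_N domain, through which bHLH factors bind R2R3 MYBs, none passed (4 higher and 4 lower at an unadjusted p under 0.05; median 0.03). SPX proteins, which in Arabidopsis and rice hold back PHR-type MYB-CC factors when phosphate is plentiful, had 1 rise and 1 fall of 12. Of 15 CCT-domain sequences, a group that includes clock and flowering regulators, 2 rose and 3 fell (median -0.18). Response regulators without a Myb domain gave 2 rises and 1 fall of 12. On other scales the 13634 annotated sequences had 1588 higher and 1449 lower (quantile-normalized), and 1838 and 1314 (median-of-ratios rescaling). With quantile-normalized values, where 5.62% of all sequences were called higher and 5.45% lower, phenylalanine ammonia-lyase had 2 rises, chalcone isomerase 1 rise, bHLH-MYC_N 5 falls and SPX 2 falls. The CCT domain then had 2 rises and 6 falls, the response regulators without a Myb domain 2 rises and 4 falls, and chalcone synthase no call. With median-of-ratios rescaling, where the shares were 6.41% and 5.22%, the counts were the same except for 1 rise of phenylalanine ammonia-lyase, 6 falls of bHLH-MYC_N and 8 falls of the CCT domain. At 15 mM none of these sequences was called by limma on the deposited scale, with 1 higher bHLH-MYC_N sequence, 1 lower CCT-domain sequence and 2 lower response regulators at an unadjusted p under 0.05. At that p 1937 of 13634 annotated sequences were higher and 127 lower.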

How the data were processed

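Leaf RNA was isolated with Trizol (labels' protocols). The authors deposited FPKM values with 2 decimals for 82125 sequences in 9 libraries, assembled with Trinity per the file headers and sequence names. Tools named without a role in the submitters' processing notes are RSEM, DESeq, FastQC 0.11.5 and Trimmomatic 0.36. Not given in the sources used here are the mapper, the merging of assemblies and strand handling. The second deposited file holds domain descriptions and no measurements, per the file headers.

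Values were used as deposited. Sequences that reached 0.5 FPKM in 3 or more libraries were fitted with limma 3.58.1 in R 4.3.3 (package data.table, version 1.17.8) on log2(FPKM + 1), with 3 groups in 1 model, 6 residual degrees of freedom, a mean trend, two-sided contrasts and Benjamini-Hochberg adjustment over all 44203 sequences. Adding 1 understates changes of low values. Fold changes are 30 or 15 mM over control, or 30 over 15 mM. The fit was tested on simulated data. FPKM carry no read counts, so no counting interval is given. Relative depth was read from the most frequent ratio of low values between libraries. Classes follow the annotation alone, and no value column was left unused.

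Named were all MYB sequences called at 30 mM against control or 15 mM, the 6 smallest p-values at 15 mM against control, the 5 highest means, the most abundant member of each class with no other named member, and those beside the filter. The members and lists were chosen with earlier results of these data known. The alternatives were other pseudocounts (0.1 and 5), other filters, 3 rescalings, a replicate block, array weights, fits of 6 libraries and leaving out each library.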

Additional observations from a re-analysis of the deposited data

How the results depend on the processing

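Among the 26 log2 fold changes of MYB sequences named for their call or for their p at 15 mM, none changed direction under the 19 alternatives: of 494 values, 389 kept their side of the threshold, 102 lost the call and 3 gained one. All 102 losses were among the calls at 30 mM. The 3 gains were among the 6 results not called at 15 mM, whose other values count as kept because they stayed uncalled. Of the members named for their abundance, 5 changed sign at 30 mM against control with quantile normalization: T15_2_TRINITY_DN560_c0_g1 (0.21 as deposited, -0.30), T30_3_TRINITY_DN27404_c0_g1 (0.24, -0.26), T15_2_TRINITY_DN4306_c0_g1 (0.14, -0.19), T15_1_TRINITY_DN7566_c0_g1 (0.01, -0.23) and TCK_3_TRINITY_DN79797_c0_g1 (0.46, -0.04). At 30 mM against control (8 higher, 6 lower) quantile normalization gave 5 and 21, median-of-ratios rescaling 5 and 19, and leaving out the 4 most abundant sequences 13 lower. Without a filter 3 were lower, and 3 in a fit of 6 libraries. Leaving out 1 library gave 6 to 9 higher and 1 to 9 lower. At 15 mM against control (0 and 0) array weights gave 3 higher, and leaving out 1 library gave 0 and 0. At 30 against 15 mM (4 higher, 2 lower) the higher calls were 2 with a pseudocount of 0.1, 1 without a filter, 2 with quantile normalization, 2 with median-of-ratios rescaling, 1 with the replicate block, 0 in a fit of 6 libraries, and 0 to 4 without 1 library. The lower calls there were 1 with a pseudocount of 5, 0 without a filter, 4 with a filter of 1 FPKM, 14 with quantile normalization, 9 with median-of-ratios rescaling, 7 with the 4 sequences left out, 1 with the replicate block, 5 with array weights, 0 in a fit of 6 libraries, and 0 to 2 without 1 library. The cause of these changes was not tested. Same-numbered libraries of different doses did not deviate together over all sequences tested (correlations of -0.0128 to 0.0269). Handling that touched only some sequences would not show in such a value, so whether these libraries share more than a number cannot be told. With the replicate block 8 were higher and 4 lower at 30 mM against control, where T30_2_TRINITY_DN2776_c0_g2 (adjusted p = 0.0852) and TCK_3_TRINITY_DN16129_c0_g1 (adjusted p = 0.0707) were not called. Unknown depth limits what can be said of members under 1 FPKM.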
